A study of Mus musculus with 12 samples.

Results

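Shank2, a gene of the postsynaptic scaffold, and 9 genes that lie near it at the distal end of mouse chromosome 7 were followed across Il18 knockout and wild-type brains: Ccnd1, Cttn, Ppfia1, Fadd, Ano1, Oraov1, Tpcn2, Dhcr7 and Nadsyn1. They are 10 of the 36163 gene names on the array. The members were selected on their differences between knockout and wild type in these same arrays, at a place away from Il18 itself, which lies on chromosome 9. Every probe that the scan files name for one of the 10 genes was taken, which gave 13 probes. The genotype differences below are therefore a description and carry no test. The comparison of ages over both genotypes did not enter the choice and was tested.

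Whole brains of BALB/c mice gave total RNA for 12 Agilent 1-colour arrays, 1 for each sample, and the labels call the samples biological replicates. The 4 groups of 3 were Il18 knockout at 6 weeks, wild type at 6 weeks, Il18 knockout at 12 weeks and wild type at 12 weeks, and none of the animals received a treatment. The labels do not say how the Il18 allele was made, which part of the gene is missing, how the knockout was bred onto BALB/c, or whether the wild-type animals were littermates. Il18 had a log2 signal between -0.32 and -0.17 on the 6 knockout arrays, against 1.51 to 1.93 on the 6 wild-type arrays. Its probe was above background on all 12 arrays, and where it lies relative to the missing part is not given.

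Shank proteins tie glutamate receptor complexes to the actin cytoskeleton in dendritic spines. Cortactin, the product of Cttn, binds both Shank proteins and branched actin. Cyclin D1, the product of Ccnd1, starts the passage of cells from G1 into S phase together with its kinases, and most cells of an adult brain do not divide. The genes were grouped as neighbours on the chromosome and, apart from this link between cortactin and Shank proteins, are not treated here as a shared pathway.

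Each value is a log2 processed signal minus the log2 75th percentile of its own array, so 0 is a signal equal to that percentile, and levels of different probes are not compared. Tested probes had to exceed background clearly in some group, on each of its 3 arrays, and 12 of the 13 did. The exception was Tpcn2. Values after ± are limma's standard errors, or the SD where so named. "Called" means an adjusted p under 0.05 in the limma fit over all 37196 probes tested. The markers of neurons, astrocytes, oligodendrocytes, microglia, endothelium, choroid plexus, blood and cerebellar neurons that were listed were above background on all 12 arrays. The share of spots clearly above background was 65.9% to 76.2% per array, and highest on 12-week wild-type replicates 2 and 3. The arrays lie on 2 slides. Slide 2 carries the 3 knockout arrays of 12 weeks and replicate 3 of the younger knockouts, and slide 1 carries the other 8, wild types included. At 12 weeks genotype and slide therefore coincide, and a slide term can be fitted there only through the 6-week knockout arrays.

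The genotype difference sits on particular probes, so the sequences that differ in their behaviour are given first. Shank2 has 2 probes, both on the plus strand of chromosome 7 in build mm9. The file annotates one by the RefSeq transcript NM_001113373, at chr7:151606981-151607040, and the other by the Ensembl transcript ENSMUST00000105900, at chr7:151610225-151610284, which is 3.2 kb further along. They are called the RefSeq probe and the Ensembl probe here. The RefSeq probe is shown whole, and the capitals mark the stop codon TAA that ends it. The frame that ends there holds 19 sense codons and 0 earlier stops. Of the Ensembl probe, bases 21 to 50 are shown, and the capitals mark its longest unbroken run of A and G.
Shank2 RefSeq probe: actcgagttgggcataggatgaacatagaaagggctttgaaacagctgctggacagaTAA
Shank2 Ensembl probe: tttAGAAGGAGAGAGAGGAAGAGGGAGAGt

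The run in the Ensembl probe is 26 bases long, and 103 of the 55681 probes on the array, or 0.185%, have a run as long or longer. Over its 60 bases, 66.7% are A or G. Its longest stretch of sequence identical to any other probe on the array is 16 bases, and 3 other probes share at least 15. Of those 3 only 1 was tested. Its group means lay between -6.04 and -4.97, near background, and it was not called between genotypes at either age. No genome was at hand, so other places that could match the probe were not looked for.

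Oraov1 also has 2 probes on the plus strand, one annotated by the RefSeq transcript NM_028184 at chr7:152106814-152106873 and one by the cDNA clone AK046447 at chr7:152114930-152114989. The cDNA probe starts 1.27 kb from the Ccnd1 probe, which is on the minus strand at chr7:152116202-152116261. Stretches of these probes are shown because the pair named Oraov1 differs in its values and the cDNA probe is next to Ccnd1. The capitals mark the longest run of A and G in each.
Oraov1 RefSeq probe: tgtccGAAGGAtttgtaaatatgttttgag
Oraov1 cDNA probe: aaccAAGGGGGAAAGcactcttccacctca
Ccnd1 probe: ctgttAGGttctagtgttccgtcttgtttt

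The remaining probes, in chromosome order, were those of Nadsyn1 at chr7:150981777-150981836, Dhcr7 at chr7:151033874-151033933, Cttn at chr7:151621678-151621737 and chr7:151622776-151622835, Ppfia1 at chr7:151662921-151662980, Fadd at chr7:151764228-151764267, Ano1 at chr7:151774604-151774663 and Tpcn2 at chr7:152439916-152439975. Dhcr7 is on the plus strand and the others are on the minus strand. The 13 probes span 1.46 Mb. The 2 Cttn probes lie 11.5 and 12.6 kb from the Shank2 Ensembl probe and are called the nearer and the farther one. No mm9 gene models were used here, so exon and UTR positions are not given.

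The Shank2 Ensembl probe was bright in every wild-type brain and dark in every knockout brain. At 6 weeks its log2 signal was -7.73, -6.13 and -6.06 in knockouts, against -0.12, -0.14 and -0.08 in wild types. The 12-week values were -7.57, -6.84 and -7.08 in knockouts, against -0.07, -0.20 and -0.34 in wild types. The groups did not overlap at either age, and none of the 6 knockout arrays was well above background while all 6 wild-type arrays were. Before scaling, the signal ran from 4.8 to 14.2 units in knockouts, against 896.5 to 1090.5 units in wild types.

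Since the knockout signal is at background, only an approximate bound on the fold can be given. Each knockout signal was replaced by the lowest signal marked as above background on its array, or kept where it was higher. On that basis the probe was 60-fold lower in knockouts at 6 weeks and 51.7-fold lower at 12 weeks. These are not strict lower limits, since brighter probes can be unmarked. On 12-week knockout replicate 3, Tpcn2 was unmarked at 21.2 units, where the lowest marked signal was 16.39 units. The fitted differences were -6.53 ± 0.37 and -6.96 ± 0.37, and since the knockout signal was not measured above background they are no measured folds. With normexp background correction they were -3.72 and -3.65. In a whole-brain sample, fewer cells of a type and less RNA per cell cannot be told apart, here and for every member below.

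The Shank2 RefSeq probe, which ends at a stop codon, did not show this pattern. At 6 weeks it had log2 signals of -3.89, -3.95 and -4.15 in knockouts, against -3.87, -4.05 and -3.98 in wild types, and the groups overlapped. The older brains had -4.07, -3.84 and -4.31 in knockouts, against -3.40, -3.53 and -3.39 in wild types, with every knockout below every wild type. It was above background on all 12 arrays.

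The knockout minus wild-type difference of the RefSeq probe was -0.03 ± 0.12 at 6 weeks and -0.64 ± 0.12 at 12 weeks. A fixed slide block gave -0.41 at 12 weeks, and with normexp background correction it was -0.13. The 2 Shank2 probes thus gave differences of -6.53 and -0.03 in the same 6-week brains. Transcripts that carry one of these sequences and not the other were not measured separately.

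Ccnd1 was lower in knockouts at both ages. At 6 weeks its log2 signal was 1.19, 1.01 and 1.12 in knockouts, against 1.73, 1.83 and 1.87 in wild types. The 12-week brains had 1.10, 1.12 and 1.16 in knockouts, against 2.0, 2.06 and 2.05 in wild types. The 6 knockout arrays lay between 1.01 and 1.19 and all 6 wild-type arrays above them.

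The Ccnd1 difference was -0.70 ± 0.07 at 6 weeks, a ratio of 0.614, and -0.91 ± 0.07 at 12 weeks, a ratio of 0.532. Within slide 1, which holds both genotypes only at 6 weeks, it was -0.71. A fixed slide block left it at -0.71 at 6 weeks and -0.93 at 12 weeks. Among the members, Ccnd1 and the Shank2 Ensembl probe were the only ones called at both ages.

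**Figure D1:**
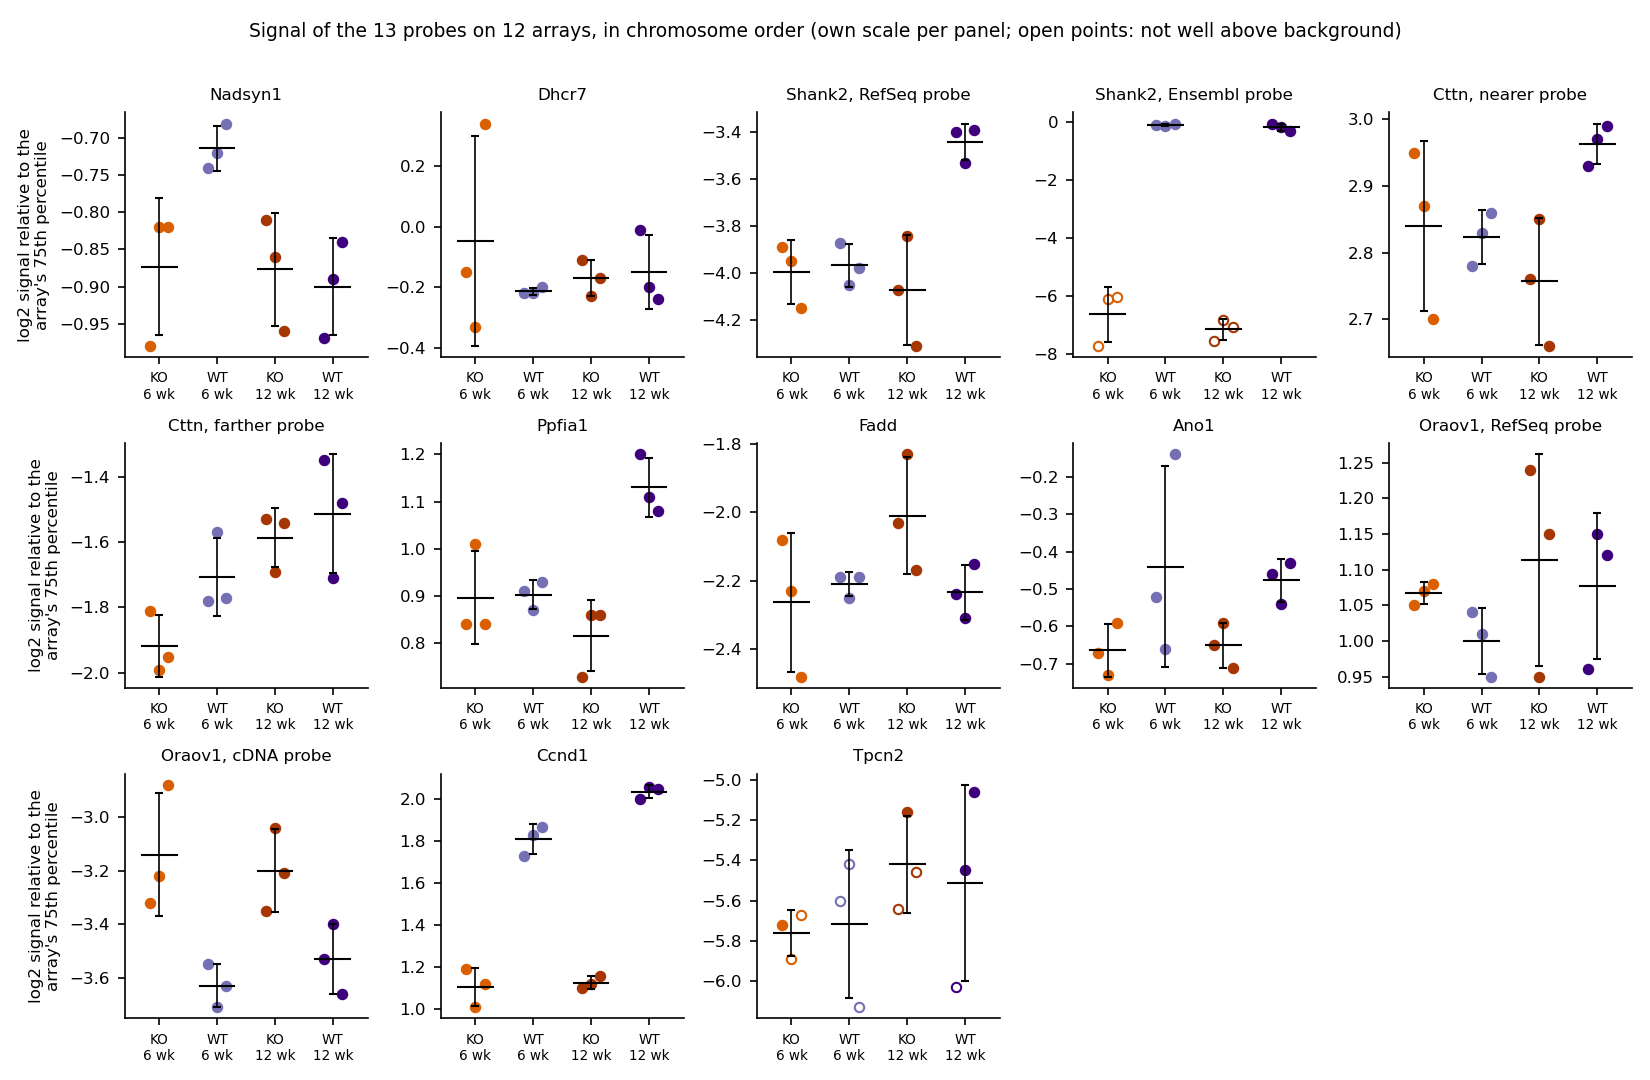
Log2 signal relative to the array's 75th percentile for the 13 probes in chromosome order, with knockout left of wild type at 6 and then 12 weeks. Points are arrays (open where not well above background), lines are means and bars are SD (n = 3), and each panel has its own scale. The Shank2 Ensembl probe and Ccnd1 are lower in knockouts without overlap at both ages and the Oraov1 cDNA probe is higher. The Shank2 RefSeq probe, Ppfia1, Ano1 and the nearer Cttn probe are apart at 12 weeks, and the farther Cttn, Nadsyn1 and Oraov1 RefSeq probes at 6 weeks.

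Ppfia1 encodes liprin-alpha1, a scaffold protein that binds LAR-type receptor phosphatases. At 6 weeks its log2 signal was 0.84, 1.01 and 0.84 in knockouts, against 0.91, 0.87 and 0.93 in wild types. At 12 weeks it was 0.73, 0.86 and 0.86 in knockouts, against 1.20, 1.11 and 1.08 in wild types. The groups overlapped at 6 weeks and did not at 12 weeks. The difference was -0.01 ± 0.07 at 6 weeks and -0.31 ± 0.07 at 12 weeks. The 12-week value with a fixed slide block was -0.23.

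Oraov1, named LTO1 in the RefSeq table, has a yeast counterpart that helps to load an iron-sulfur cluster onto a ribosome recycling factor. Its cDNA probe was higher in knockouts. At 6 weeks that probe had -3.32, -3.22 and -2.88 in knockouts, against -3.55, -3.71 and -3.63 in wild types. At 12 weeks it had -3.35, -3.04 and -3.21 in knockouts, against -3.53, -3.40 and -3.66 in wild types. The groups did not overlap at either age, but neither difference was called.

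The difference of the Oraov1 cDNA probe was 0.49 ± 0.13 at 6 weeks and 0.33 ± 0.13 at 12 weeks. Fitted with a fixed slide block it was 0.36 at 6 weeks and -0.06 at 12 weeks, so the sign at 12 weeks depends on the slide term. The Oraov1 RefSeq probe had differences of 0.07 ± 0.09 and 0.04 ± 0.09. Its 12 arrays ran from 0.95 to 1.24.

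Cttn, the cortactin gene, had differences close to 0 with the nearer probe at 6 weeks (0.02 ± 0.08) and with the farther probe at 12 weeks (-0.07 ± 0.11). The nearer probe had 2.76, 2.85 and 2.66 in 12-week knockouts, against 2.93, 2.97 and 2.99 in 12-week wild types. These groups did not overlap, and the difference was -0.21 ± 0.08, or 0.01 with slide as a fixed block. The farther probe had -1.81, -1.99 and -1.95 in 6-week knockouts, against -1.78, -1.57 and -1.77 in 6-week wild types. Those groups were also apart, with a difference of -0.21 ± 0.11, or 0.04 with slide column as a block. Each Cttn probe thus separated the genotypes at 1 age and the other probe did not at that age.

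Fadd encodes the adaptor that links death receptors to caspase-8. Its difference was -0.06 ± 0.11 at 6 weeks and 0.22 ± 0.11 at 12 weeks, with overlapping groups at both ages. The 12-week value was 0.55 with slide as a fixed block, 0.36 with a random one and 0.13 without 12-week knockout replicate 2. Ano1, a calcium-activated chloride channel, had differences of -0.22 ± 0.12 and -0.17 ± 0.12. The 6-week value was -0.12 with median scaling, -0.07 without 6-week wild-type replicate 3 and -0.33 without 6-week wild-type replicate 2, and the 12-week value was -0.28 with slide as a fixed block and -0.05 with median scaling. Its 6-week groups overlapped, while the 12-week groups did not, at -0.65, -0.59 and -0.71 in knockouts, against -0.46, -0.54 and -0.43 in wild types. Neither gene was called at either age.

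Dhcr7, the reductase of the last step of cholesterol synthesis, had differences of 0.16 ± 0.14 at 6 weeks and -0.02 ± 0.14 at 12 weeks. At 6 weeks the knockouts had -0.15, -0.33 and 0.34, against -0.22, -0.22 and -0.20 in wild types. The value of 0.34 is that of replicate 3, the 6-week knockout array on slide 2, and without that array the 6-week difference was -0.03. With slide as a fixed block, which rests on the same array, the 12-week difference was -0.60.

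Nadsyn1 encodes the synthetase of the last step of NAD synthesis. It had -0.98, -0.82 and -0.82 in 6-week knockouts, against -0.74, -0.72 and -0.68 in 6-week wild types, which did not overlap. The difference was -0.16 ± 0.07 at 6 weeks and 0.03 ± 0.07 at 12 weeks. Tpcn2, an endolysosomal cation channel, was well above background on 1 of 3 knockout arrays at 6 weeks, 0 of 3 wild-type arrays at 6 weeks, 1 of 3 knockout arrays at 12 weeks and 2 of 3 wild-type arrays at 12 weeks. Its values between -6.13 and -5.06 therefore give no level to compare, and it was not tested.

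Of the 12 tested probes, 2 were called at 6 weeks, where 0.624% of all 37196 probes were called, and both were lower in knockouts. At 12 weeks 4 were called, where 31.4% of all probes were, and all 4 were lower: both Shank2 probes, Ccnd1 and Ppfia1. The genotype groups did not overlap for 6 probes at 6 weeks and 7 at 12 weeks. The share of all probes without overlap is not given here, so these 2 counts have no background beside them. The median difference over the 12 probes was -0.04 at 6 weeks and -0.12 at 12 weeks, against 0.03 and 0 over all probes. Because the genes were listed from this contrast, nothing follows from these counts. With slide as a fixed block, 33 of the 37196 probes were called at 12 weeks in place of 11698, and the member probes among them were the Shank2 Ensembl probe and Ccnd1. Without a slide term, the Oraov1 cDNA probe (0.33 ± 0.13) and the nearer Cttn probe (-0.21 ± 0.08) lay just outside the threshold at 12 weeks.

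**Figure D2:**
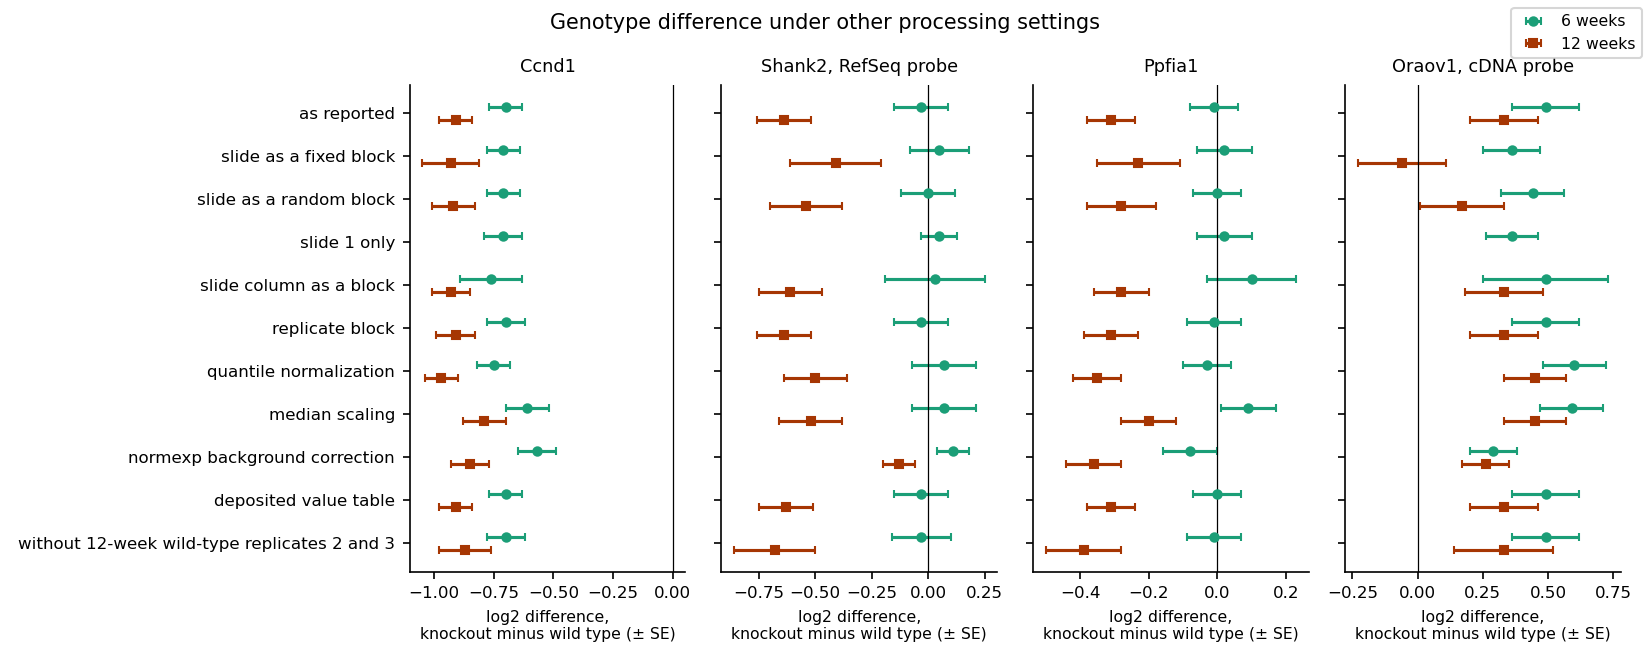
Knockout minus wild-type log2 difference (± SE) of 4 probes under 11 processing settings, at 6 weeks (circles) and 12 weeks (squares); slide 1 alone has no 12-week value. Ccnd1 stays near its reported -0.70 and -0.91, while the 12-week value of the Oraov1 cDNA probe changes sign with slide as a fixed block.

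The rest of the distal chromosome 7 was described in the same way, to see whether the differences extend along it. Within 5 Mb of a member probe there were 269 other probes, of which 206 were tested. Only 4 of the 206 lie beyond the Shank2 Ensembl probe, on the side of Ccnd1 and Oraov1, and 1 of the 4 was called at each age. The counts over the 206 therefore describe mainly the centromeric side. At 6 weeks 2 of them were called, or 0.971% beside 0.624% of all probes, and both were lower in knockouts. At 12 weeks 62 were called, or 30.1%, beside 31.4% of all probes, with 50 higher and 12 lower. With slide as a fixed or as a random block 0 of the 206 were called at 12 weeks, and without 12-week wild-type replicates 2 and 3 there were 2. Leaving out single arrays gave 35 to 75, the lowest being 35 without 12-week knockout replicate 1 and 39 without 12-week wild-type replicate 2. The 6-week count was 0 without 6-week wild-type replicates 1 or 2 or 6-week knockout replicate 1, and otherwise 1 or 2. The median difference of the 206 was 0.05 at 6 weeks and 0.14 at 12 weeks, against 0.03 and 0 over the other probes.

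One of the 2 neighbours called at 6 weeks was 1810010D01Rik, named Smim38 in the RefSeq table, a gene of a small predicted membrane protein. It was chosen for mention after its values were seen. Its probe is at chr7:152391790-152391849, 781.6 kb beyond the Shank2 Ensembl probe. At 6 weeks it had -5.02, -4.17 and -4.74 in knockouts, against -3.18, -2.91 and -3.38 in wild types. At 12 weeks it had -4.62, -4.64 and -4.31 in knockouts, against -3.30, -2.86 and -3.33 in wild types. The groups did not overlap at either age. The differences were -1.49 ± 0.22 and -1.36 ± 0.22, and within slide 1 the 6-week one was -1.44, which was not called there. Its 6-week call was also lost with slide as a fixed block, with slide column as a block, with no filter on dim probes and with only the groups compared. The same held without 6-week wild-type replicates 1 or 2, or 6-week knockout replicates 1 or 3. Normexp background correction gave -0.79 at 6 weeks and -0.68 at 12 weeks. A second probe of this gene was above background on 1 knockout array and on no other. Fitted with no filter on dim probes it went the other way, at 1.39 ± 0.30 at 6 weeks and 0.72 ± 0.30 at 12 weeks. The other neighbour called at 6 weeks was the transcript ENSMUST00000140820, at -4785.4 kb from the Shank2 probe, on its centromeric side, with a difference of -0.86 ± 0.15; it too was picked out after its values were seen.

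At 12 weeks the called neighbours with the largest differences were 1810010D01Rik and the cDNA AK163513 (-1.09). Of those with a gene name that is not a clone or accession number, the next included the imprinted antisense RNA Kcnq1ot1 (-0.98 ± 0.30), the olfactory receptor gene Olfr536 (-0.94 ± 0.30), Jakmip3 (-0.76 ± 0.19), the keratin-associated Krtap5-2 (-0.66 ± 0.15), the neuronal differentiation gene Cend1 (0.66 ± 0.11) and the polymerase subunit gene Polr2l (0.64 ± 0.10). The 6 lie between -5393.2 and -1176.2 kb from the Shank2 probe, on its centromeric side, while 1810010D01Rik lies on the other side. At 12 weeks slide and genotype cannot be told apart. In the map of differences along the chromosome, the fitted size of the Shank2 Ensembl probe rests on knockout signals at background.

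**Figure D3:**
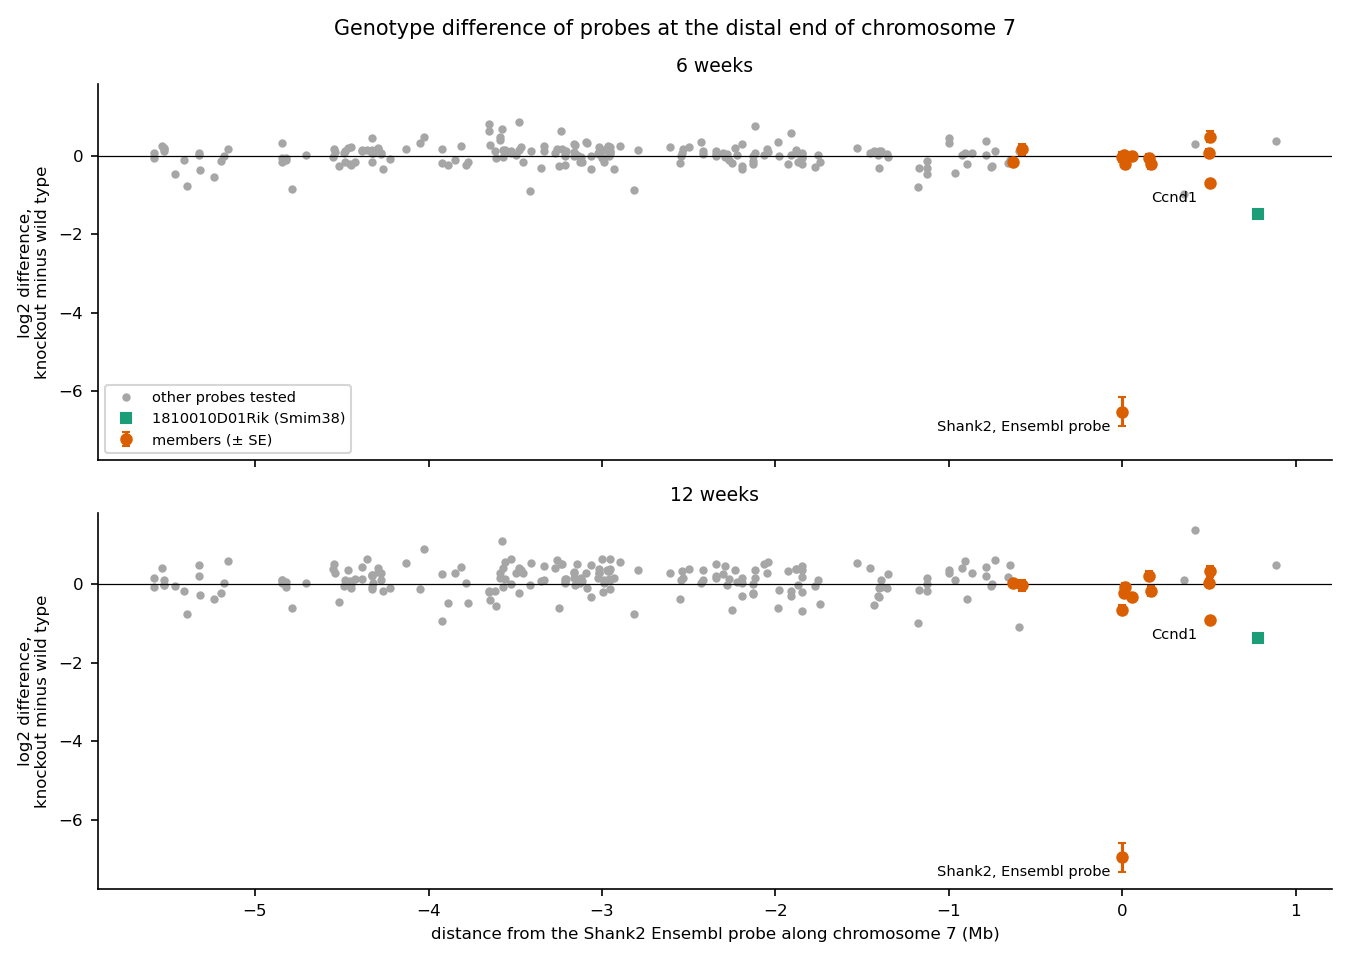
Knockout minus wild-type log2 difference of tested probes at the distal end of chromosome 7 against distance from the Shank2 Ensembl probe in Mb, at 6 weeks (top) and 12 weeks (bottom). Orange points are members (± SE), the green square is 1810010D01Rik and grey points are other probes. The Shank2 Ensembl probe is fitted at -6.53 and -6.96, from knockout signals at background.

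Genes whose pattern over the 12 arrays was like that of the Shank2 Ensembl probe were found by the root mean square difference after each probe was centred on its own mean. The probe's own root mean square about its mean was 3.4 log2 units. Among 37142 other probes, those with only a clone, accession or region name and second probes of a gene were passed over in naming. The first gene so named was Ppcdc, of coenzyme A synthesis, which ranked 3 at 1.42. The next named genes were Ift46, a ciliary transport gene, at 2.35 (rank 7), Il18 at 2.47 (rank 11), the immune receptor gene Lilra5 at 2.54 (rank 13) and the vomeronasal receptor gene Vmn1r222 at 2.54 (rank 14). Ppcdc, Ift46 and Il18 are on chromosome 9, Lilra5 is on chromosome 7 and Vmn1r222 is on chromosome 13.

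Like the Shank2 probe, Ppcdc was above background on no knockout array and on every wild-type array. Its log2 signal averaged -7.93 ± 0.25 in 6-week knockouts and -3.94 ± 0.15 in 6-week wild types (SD, n = 3 each). At 12 weeks it averaged -7.86 ± 0.08 in knockouts and -3.76 ± 0.08 in wild types (SD, n = 3 each). The likeness is a description over arrays that share 2 genotypes, 2 ages and 2 slides, and the genes were ranked because of it.

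Age was compared next. Over both genotypes, 12 against 6 weeks, none of the 12 tested probes was called by limma, where 1.52% of all probes were, and 3 had an unadjusted p under 0.05. The farther Cttn probe had the highest difference, 0.26 ± 0.07 with an adjusted p of 0.100 in limma. It was higher at 12 weeks in both genotypes, by 0.33 ± 0.11 in knockouts and 0.19 ± 0.11 in wild types. The Shank2 RefSeq probe had 0.22 ± 0.08 (limma, adjusted p = 0.18) and Ccnd1 had 0.12 ± 0.05 (limma, adjusted p = 0.2). The median over the 12 probes was 0.05, against 0 over all probes.

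Within knockouts, 0 of 12 member probes were called by limma, where 1.09% of all probes were, and 2 had an unadjusted p under 0.05. These were the farther Cttn probe, with an adjusted p of 0.101 in limma, and Fadd, at 0.25 ± 0.11 with an adjusted p of 0.191. Within wild types, 0 of 12 were called by limma as well, where 0.438% of all probes were, and 4 had an unadjusted p under 0.05. The age groups of knockouts did not overlap for 1 tested probe, and those of wild types for 5. For these counts too the share over all probes is not given, and nothing is read from them.

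In wild types the Shank2 RefSeq probe had the largest age difference of the members, 0.53 ± 0.12 with an adjusted p of 0.0923 in limma. Ccnd1 differed by 0.23 ± 0.07 (limma, adjusted p = 0.185), Ppfia1 by 0.23 ± 0.07 (limma, adjusted p = 0.207) and Nadsyn1 by -0.19 ± 0.07 (limma, adjusted p = 0.278). In knockouts the same probes differed by -0.08 ± 0.12, 0.02 ± 0.07, -0.08 ± 0.07 and 0.00 ± 0.07. The age comparisons within a genotype share their arrays with the genotype comparisons by which the genes were listed, so they are not independent of that choice.

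How far the genotype difference itself changed between ages (12 minus 6 weeks) is built from the genotype comparisons by which the genes were listed. Its values and calls are therefore a description and test nothing. This change was called for 0 of 12 member probes, where 0.102% of all probes were called. For the Shank2 RefSeq probe it was -0.61 ± 0.17, or -0.23 with normexp background correction and -0.46 with a fixed slide block, and for Ppfia1 -0.31 ± 0.10. Without 6-week knockout replicate 3 the Shank2 RefSeq probe had -0.68 and was called, so that single array decides the count between 0 and 1. In that setting 5840 of all 37196 probes were called, against 38 with all arrays. Slide 2 then holds only the 12-week knockouts, so this change and the slide cannot be told apart there. With all arrays the change was -0.43 ± 0.53 for the Shank2 Ensembl probe and -0.21 ± 0.10 for Ccnd1.

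**Figure D4:**
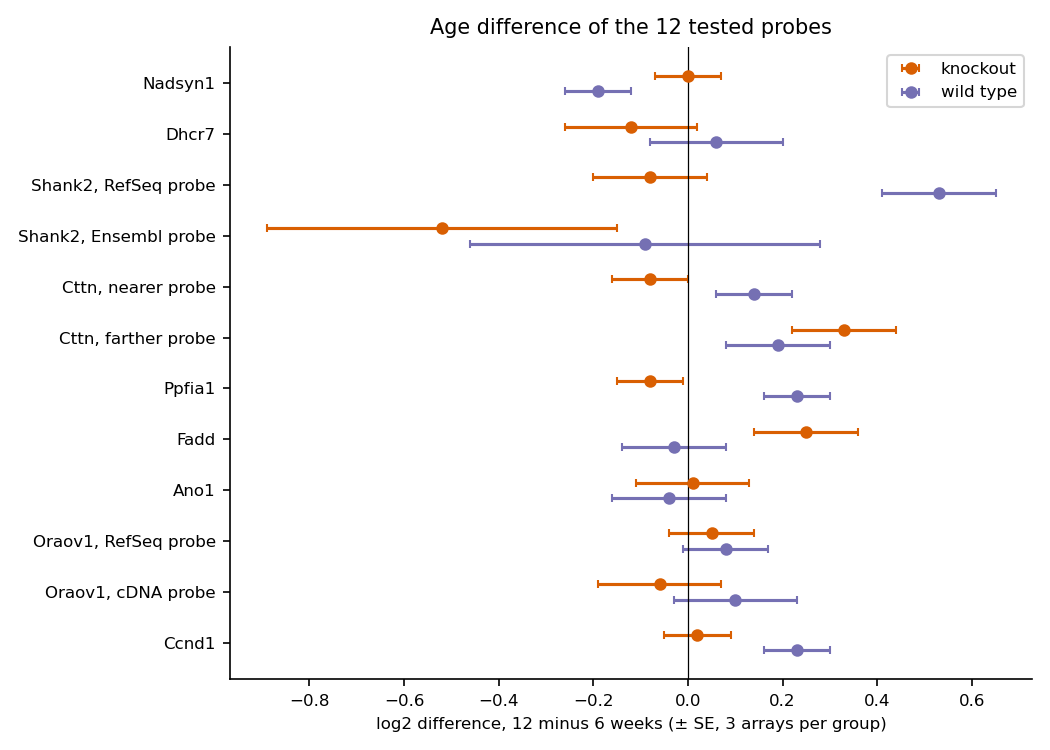
Log2 difference between 12 and 6 weeks (± SE, 3 arrays per group) of the 12 tested probes, for knockout (orange, upper) and wild type (violet, lower). The Shank2 RefSeq probe has 0.53 in wild types and -0.08 in knockouts, and the farther Cttn probe lies right of 0 in both.

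Genes that work with the members were counted from lists, with the probe of the highest mean for each gene. The 12-week counts between genotypes are those without a slide term, and stand beside the 31.4% of all probes called at that age and the 0.624% at 6 weeks. With slide as a fixed or as a random block, Sc5d was the only gene of all these lists, markers included, that was called at 12 weeks. For Shank2, the list held 21 scaffold and receptor genes of the postsynapse, all tested. At 6 weeks Shank3, its sister scaffold gene, was higher in knockouts by 0.43 ± 0.07, and it was the only one of the 21 called. It was not called with slide as a fixed block, within slide 1, without any 1 of the 6-week wild-type replicates, or without 6-week knockout replicates 1 or 3. At 12 weeks 6 were called higher and 3 lower, among them Shank1 (0.68 ± 0.14) and the linkers Dlgap3 (0.52 ± 0.09) and Dlgap2 (0.43 ± 0.08), all higher. None of the 21 was called between ages.

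For Ccnd1, 10 of 11 genes of the D cyclins and their G1 partners were tested. At 6 weeks 1 was called, the kinase inhibitor gene Cdkn1a, higher in knockouts by 1.10, and it was not called without 6-week wild-type replicates 1 or 2. At 12 weeks Cdkn1a was higher by 0.90, Ccnd3 higher by 0.26 and Ccne2 lower, at -2.30 ± 0.54. No other gene of the list was called. Ccne2 averaged -7.96 in 12-week knockouts and -5.67 in 12-week wild types. The lowest signals marked as above background on the 12-week knockout arrays were -5.95 to -5.83, so its -2.30 is no measured fold. None was called between ages.

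For Cttn, 12 genes of branched actin gave 0 calls at 6 weeks, and 3 higher and 2 lower at 12 weeks. Higher were the dynamin gene Dnm2 (0.58), with a probe on chromosome 9 like Il18, and the Arp2/3 subunit genes Arpc4 (0.50) and Arpc2 (0.41). Lower were Actr2 (-0.43), also of the Arp2/3 complex, and Cttnbp2 (-0.28). For Ppfia1, 12 liprin and active zone genes gave 0 calls at 6 weeks, and 3 higher and 2 lower at 12 weeks, led by Ppfia3 (0.58), Ppfia2 (-0.46) and the LAR-type phosphatase gene Ptprd (-0.44). For Fadd, 9 death receptor genes gave 0 calls at 6 weeks, and 5 higher and 1 lower at 12 weeks, among them Tradd (0.45), Mlkl (0.43) and Cflar (0.32). For Ano1 and Tpcn2, 9 of 10 anoctamin and lysosomal genes were tested, with 0 calls at 6 weeks and 3 higher at 12 weeks, namely Ano8 (0.42), Lamp1 (0.41) and Tpcn1 (0.26). None of these lists had a call between ages.

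For Nadsyn1, 9 of 10 NAD genes were tested. Nnmt, a methyltransferase that uses up nicotinamide, was lower in knockouts at both ages, at -1.13 and -1.08. Its probe is on chromosome 9, as Il18 is. Naprt1 (0.66) and Nmnat1 (0.42) were higher at 12 weeks. The 6-week call of Nnmt was lost without any 1 of the 6-week arrays, 12-week knockout replicates 2 or 3, or with slide as a fixed block. For Dhcr7, 18 sterol genes were tested. Sc5d, the desaturase just before Dhcr7 in the pathway, with a probe on chromosome 9 like Il18, was lower in knockouts by limma at 6 weeks (-0.88 ± 0.10) and at 12 weeks (-1.33 ± 0.10, or -0.99 ± 0.12 with slide as a fixed block). Its 6-week call held when any 1 array was left out. At 12 weeks 8 sterol genes were lower and 1 higher, including the regulator gene Insig1 (-0.64 ± 0.10).

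The sterol list also had calls between ages. In knockouts, where 1.09% of all probes were called, 5 of its 18 genes fell with age. Among them were Sc4mol (-0.51 ± 0.08) and Sc5d (-0.59 ± 0.10), each with an adjusted p of 0.0425 in limma. The list's median was -0.28 against -0.01 over all probes. Over both genotypes, where 1.52% of all probes were called, 3 fell, namely Sc5d, Fdps and Sc4mol. Under a fixed slide block, where the medians were -0.36 and -0.24, none of the 18 was called in either comparison. Leaving out single arrays gave 0 to 8 falls in knockouts and 0 to 4 over both genotypes. The knockout count was 0 without 6-week wild-type replicate 2, 12-week wild-type replicates 1 or 3, 6-week knockout replicates 1 or 2, or 12-week knockout replicates 1 or 3, and 8 without 6-week knockout replicate 3. The count over all 37196 probes in knockouts moved too, from 407 with all arrays to 9625 without 6-week knockout replicate 3. It was 1 to 66 in the 7 settings where the list had 0. Over both genotypes the list's count was 0 without the same 7 arrays or 12-week wild-type replicate 2. Dhcr7 itself had -0.12 ± 0.14 between ages in knockouts.

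A list of 23 neighbours at the distal end of chromosome 7 included genes of the imprinted cluster, and 17 of the 23 were tested. Of these, 0 were called at 6 weeks and 7 were higher at 12 weeks, among them Osbpl5 (0.61), Nap1l4 (0.59) and Tssc4 (0.26). Over both genotypes the transporter gene Slc22a18 rose with age by 0.51 ± 0.11 (limma, adjusted p = 0.0454), and it was not called with slide as a block of either kind. The call was also lost without 6-week wild-type replicates 2 or 3, 6-week knockout replicates 1 or 2, or any 1 of the 12-week arrays.

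Markers of other cell types moved at 12 weeks beside these counts. Knockouts had 4 of 6 oligodendrocyte, 4 of 6 microglia and 4 of 5 blood markers called higher, and 2 markers each of neurons, astrocytes and endothelium. No Purkinje or choroid plexus marker was called. The summed level of the 5 blood markers, in units of the array's 75th percentile, ran from 87.3 to 142 in 12-week knockouts, against 58.5 to 81.6 in 12-week wild types. At 6 weeks 1 marker, of endothelium, was called higher, and the summed level of the 5 endothelial markers ran from 32.5 to 35.7 in knockouts, against 23.5 to 26.0 in wild types. None of the listed markers was called at 12 weeks by limma with slide as a fixed or random block. The part of these markers in the 12-week differences was not tested.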

How the data were processed

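The members and gene lists were chosen with earlier results of these data known. The authors deposited 1 scan file per array, for which the submitters' processing notes name Agilent Feature Extraction 10.7.3.1. The processed signal used is a fluorescence intensity, background-subtracted by the authors' software per the file headers, and other deposited columns, 0 or 1 per the file headers, flag spots well above background, saturated or outlying. The deposited value table, also an intensity, differed from that signal by at most 0.498%. Probe positions are those of the files, build mm9.

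Outlier spots (107 to 220 per array) were dropped, log2 was taken, the log2 75th percentile of the array's 59305 non-control spots was subtracted and spots of a probe were averaged. The percentile was 890.1 to 1187.7 units, and no spot was saturated. Kept were the 37196 of 55681 probes flagged as well above background on each of the 3 arrays of some group. They were fitted with limma 3.58.1 in R 4.3.3 (lmFit, eBayes, 1 mean per group, 8 residual degrees of freedom, two-sided) and adjusted by Benjamini-Hochberg at 0.05. The fit was tested on simulated data. The number of arrays limits the precision.

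All member probes are named. Called neighbours are named by largest difference (up to 6 per genotype comparison), list genes by smallest p (up to 3 per comparison). One list gene that this rule names is not reported here. Current symbols came from a RefSeq table, in which 9 of the 10 members matched by symbol. Probe sequences are from the scan files.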

Additional observations from a re-analysis of the deposited data

How the results depend on the processing

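Of the 12 member probes, 2 were called at 6 weeks. This became 1 with only probes above background on all 12 arrays, which drops the Shank2 Ensembl probe, 1 with slide column as a block and 1 with only the groups compared. The cause of the other changes was not tested. At 12 weeks 4 were called, and 2 with slide as a fixed block, 2 with slide as a random block and 2 without 12-week wild-type replicates 2 and 3, a setting chosen after seeing the data. Over all 37196 probes the 12-week count was 11698 as reported, 33 with slide as a fixed block, 70 with slide as a random block and 369 without those arrays. For the difference between ages, leaving out 1 array gave 0 to 1 calls, the 1 without 6-week knockout replicate 3. Without that array 5840 of all 37196 probes were called for the change of the genotype difference between ages. A replicate block gave 2 calls at 6 weeks, 4 at 12 weeks and 0 in every other comparison, as without it. Arrays of the same replicate number correlated between -0.195 and 0.102, and 1 array correlated best with its own number, so the numbers do not pair the samples. Median scaling moved the median of all probes to 0.126 at 6 weeks and 0.118 at 12 weeks, and Ccnd1 then had -0.61 and -0.79. Over all settings run, including arrays left out, Ccnd1 stayed between -0.76 and -0.57 at 6 weeks and between -0.97 and -0.79 at 12 weeks. The Shank2 Ensembl probe stayed between -6.82 and -3.72 at 6 weeks and between -7.83 and -3.65 at 12 weeks. The first 2 principal components held 38.6% and 12.4% of the variance, and the first separates the slides. Signal at background limits the Shank2 Ensembl probe in knockouts and Tpcn2.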

Other observations

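Other probes with as long a run of A and G as the Shank2 Ensembl probe numbered 102, of which 97 were tested. At 6 weeks their median difference, knockout minus wild type, was -0.53, and they ranged from -1.64 to 0.96, with 0 called by limma where 0.624% of all probes were. At 12 weeks 6 were called, 3 higher and 3 lower, with a median of 0.02, or 6.19% where 31.4% of all probes were called. At 6 weeks 8 of the 97 were lower in knockouts by over 1 log2 unit. The Shank2 Ensembl probe, at -6.53 and -6.96 from knockout signals at background, had the lowest difference of all 37196 probes tested at both ages. It therefore had to lie below any such set, and nothing follows from its place below these 97. The part of the run in its difference was not tested.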
